A study of Homo sapiens with 14 samples.

Results

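ANGPTL4 knockdown under hypoxia was measured on 4 of the 14 arrays of the series, which form 2 of its 6 knockdown pairs. The members are the arrays of cells held in 1% O2 for 1 day or 2 days with ANGPTL4 knockdown, each set against the array of the same day in 1% O2 without it. The cells are a gastric carcinoma line, an epithelial cancer line that the labels name MKN28 and the study's methods MKN74, and they were seeded sparsely so that they grew as colonies before treatment. Besides these arrays, 1 array of the untreated line, taken on day 2 and not held in hypoxia, gave a reference level. The remaining arrays, used only where the hypoxia pairs are set against other pairs, hold the same line given 10 ng/mL TGFβ1 for 1 or 2 days, and its Snai1ER derivative, in which 20 ng/mL 4-hydroxytamoxifen (4-OHT) activates a Snai1 transgene, untreated on day 4 or treated for 2 or 4 days. Both treatments were also run with ANGPTL4 knockdown, which in the Snai1ER cells came from a short hairpin RNA.

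The labels of the hypoxia arrays call the cells ANGPTL4-knockdown and no more, the study's methods name siRNA for other assays, and whether the arrays without knockdown received a control siRNA is not given in the sources used here. A change caused by the loss of ANGPTL4 and one caused by the delivery of the RNA therefore cannot be told apart. Each condition and day has 1 array, so a difference within hypoxia has no replicate check and no test. A gene was counted as higher or lower with knockdown when its level differed at least 1.5-fold between the paired arrays, a log2 difference of 0.585. Levels are log2 RMA values as deposited, and a difference is the knockdown array minus the array without knockdown unless stated otherwise. On bulk arrays, fewer cells of a type and less RNA per cell cannot be told apart.

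The knockdown array of day 1 stood apart from all the others. Its SD from the mean of the other arrays, over all probe sets, was 0.699, against 0.311 to 0.609 for the rest. Its correlation with the other arrays ran from 0.924 to 0.948, and its values spanned a narrower range, with an interquartile range of 2.90 against 3.27 and 3.28 on the hypoxia arrays without knockdown and 3.18 on the knockdown array of day 2. The correlation within the pair was 0.944 on day 1 and 0.98 on day 2, across probe sets, which are not independent. For this reason each day is given on its own, and the day 2 values are the ones free of that array.

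ANGPTL4, the targeted gene, does not check the knockdown label. Its level was 5.28 on the untreated array, 5.29 without and 5.66 with knockdown on hypoxia day 1, and 5.22 and 5.29 on day 2. All 14 arrays lay between 4.16 and 5.66, below the filter of 5.90 on the mean level used here, so the probe set was dim with and without hypoxia and with and without knockdown. Epithelial identity was measured with 14 listed markers, 13 of them on the array and 11 above the filter. The mean level of the 13 lay between 8.54 and 8.97 on the 4 hypoxia arrays. Of the 11 markers above the filter, 3 were lower with knockdown on each day (27.3%), the same 3 on both, and 1 was higher on day 2. Among all genes above the filter, 26.0% were lower on day 1, close to the share of the markers, and 9.23% on day 2. KRT8 had differences of -2.55 and -0.75, KRT18 of -1.07 and -0.94 and CLDN7 of -1.04 and -0.68. EPCAM, an epithelial adhesion protein that did not pass the rule, was at 11.75, 11.84, 11.60 and 11.60 on hypoxia day 1, its knockdown, hypoxia day 2 and its knockdown. Of 10 fibroblast, 9 leukocyte and 8 endothelial markers on the array, 1 of each list passed the filter, and their list means stayed between 4.64 and 5.23 on these arrays.

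Cells that sense foreign RNA or type I interferon switch on a large set of interferon response genes through interferon regulatory factors such as IRF3 and IRF9, which bind elements built of GAAA repeats. In low oxygen, the prolyl hydroxylases that mark HIF for destruction lose activity, and HIF then raises genes of glycolysis, angiogenesis and oxygen sensing through sites with the core ACGTG. ANGPTL4 is a secreted protein and lipoprotein lipase inhibitor, itself a HIF target in many cells, and its C-terminal fragment acts on integrins and the matrix.

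Interferon response genes made up the clearest group among the genes lower with knockdown on both days, and the promoters of 4 of them are shown first, since they carry the interferon core. Each is the 250 bases before the first-listed start of the gene in RefSeq (GRCh38.p14), written 5′ to 3′ along the gene, with every match in capitals. A match is GAAA, any 2 bases and GAAA again, or on the other strand TTTC, any 2 bases and TTTC. IFIT3 lies at chr10:89327747-89327996 on the plus strand, IFITM1 at chr11:313790-314039 on the plus strand, HERC5 at chr4:88456869-88457118 on the plus strand and PARP12 at chr7:140062952-140063201 on the minus strand. In HERC5, 2 of the 3 matches overlap.
IFIT3: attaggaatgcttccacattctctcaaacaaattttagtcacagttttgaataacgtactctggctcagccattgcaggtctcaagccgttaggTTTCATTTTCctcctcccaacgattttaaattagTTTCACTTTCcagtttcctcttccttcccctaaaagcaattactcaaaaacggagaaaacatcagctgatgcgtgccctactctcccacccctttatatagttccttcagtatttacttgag
IFITM1: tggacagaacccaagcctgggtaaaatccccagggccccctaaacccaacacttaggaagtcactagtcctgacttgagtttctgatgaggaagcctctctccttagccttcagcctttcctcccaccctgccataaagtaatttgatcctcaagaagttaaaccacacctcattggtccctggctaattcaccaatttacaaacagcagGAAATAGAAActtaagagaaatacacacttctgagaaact
HERC5: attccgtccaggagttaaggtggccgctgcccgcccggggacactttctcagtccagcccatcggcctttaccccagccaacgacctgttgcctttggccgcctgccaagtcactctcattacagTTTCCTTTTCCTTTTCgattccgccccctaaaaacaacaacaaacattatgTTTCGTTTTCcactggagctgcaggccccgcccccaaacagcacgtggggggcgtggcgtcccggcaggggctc
PARP12: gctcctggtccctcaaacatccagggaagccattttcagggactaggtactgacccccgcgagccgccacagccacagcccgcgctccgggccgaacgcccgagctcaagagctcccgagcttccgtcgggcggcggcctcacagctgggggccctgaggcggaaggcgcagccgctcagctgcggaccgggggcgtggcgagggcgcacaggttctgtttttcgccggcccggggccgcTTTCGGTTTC

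Over all genes in the promoter table, 3.07% of 27305 windows hold this core on either strand, and 2.28% of the 8908 genes tested that have a window. Among the interferon response genes measured, 21 of 39 windows hold it (53.8%), with 16 of 29 among those lower on both days (55.2%) and 5 of 10 among the others (50.0%). Of all genes lower on both days, 34 of 362 windows hold it (9.39%). A match is a description of the letters and not evidence of binding.

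On day 1, without a replicate, 1190 of the 11050 genes tested (10.8%) were higher and 2877 (26.0%) were lower with knockdown. On day 2, 451 (4.08%) were higher and 1020 (9.23%) were lower. The SD of the differences over all genes was 0.721 on day 1 and 0.417 on day 2, and their medians were -0.11 and -0.03. Of the day 1 calls 70.7% were lower as deposited, 60.1% after quantile normalization and 83.2% with arrays centred on their medians, which moved the median of all genes from -0.11 to -0.03 and -0.26. Of the day 2 calls 69.3% were lower as deposited. Day 1 thus held more and larger differences, on the array with the narrower range of values.

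The 2 days shared few calls. Of all genes tested, 444 (4.02%) were lower on both days and 48 (0.434%) were higher on both. The genes lower on both days made up 15.4% of those lower on day 1, against 9.23% of all genes tested lower on day 2. They made up 43.5% of those lower on day 2, against 26.0% of all genes tested lower on day 1. Lower calls were thus shared more than the share of the other day alone would give, which was not tested. Calls in opposite directions were seen for 255 genes, of which 161 (1.46% of genes tested) were lower on day 1 and higher on day 2, and 94 (0.851%) the reverse. Of the genes higher on day 2, 35.7% had been lower on day 1 and 10.6% higher. Across genes, which are not independent, the differences of the 2 days had a Pearson's r of 0.12 and a Spearman's rho of 0.08.

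The day 1 differences also followed the level of a gene. With genes split into 4 equal bins by level on the untreated array, in the dimmest bin the median day 1 difference was 0.21 and 435 genes were higher against 232 lower, while in the brightest bin the median was -0.38, with 176 higher against 1011 lower. On day 2 the medians of those bins were 0 and 0.01. The part of the narrower range of the day 1 array in any single gene's difference was not tested. The gene lists were not matched for level. The 26.0% of all genes tested that were lower on day 1 is thus not a level-matched share for any list.

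**Figure D1:**
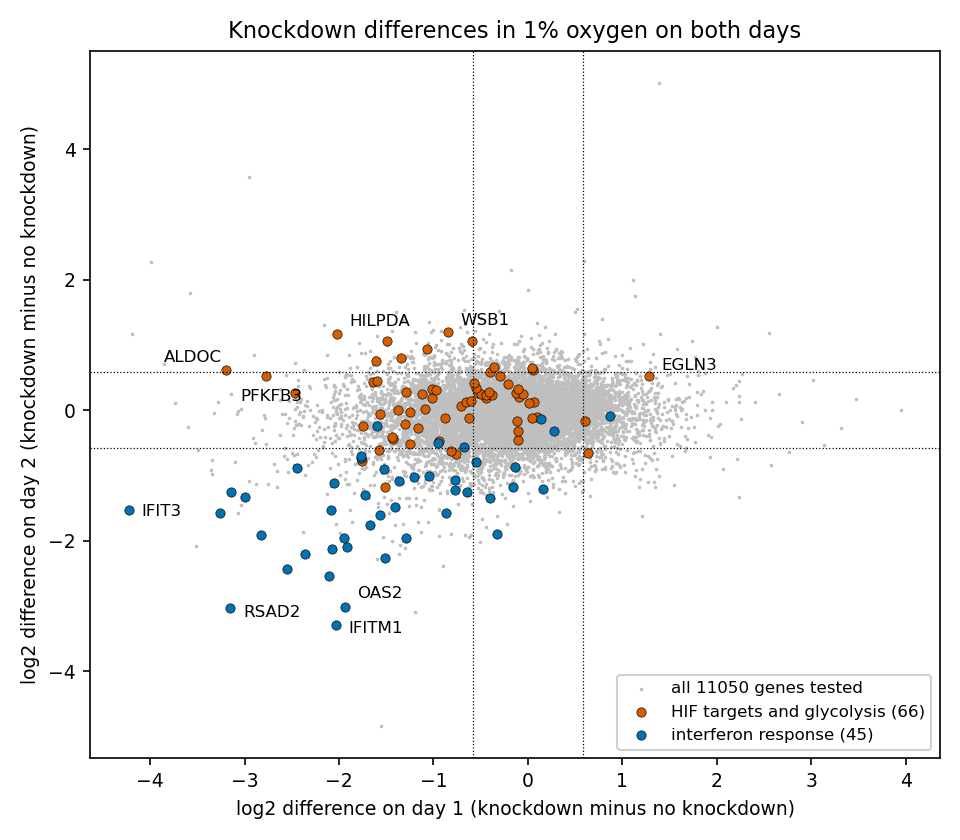
Each point is a gene, with its log2 difference (knockdown minus no knockdown in 1% O2) on day 1 on the x axis and on day 2 on the y axis; dotted lines mark the 1.5-fold rule, blue points are the 45 interferon response genes and orange points the 66 HIF target and glycolysis genes. Of the blue points, 33 lie in the lower left corner beyond both lines, whereas the orange points spread along the left of the plot and around 0 on day 2.

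Of the 57 interferon response genes listed, 45 passed the filter. On day 1, 36 of them were lower with knockdown (80%, against 26.0% of all genes tested) and 1 was higher. On day 2, 39 were lower (86.7%, against 9.23%) and 0 higher. Those lower on both days numbered 33, against 4.02% of all genes tested. The list's median difference was -1.57 on day 1 and -1.30 on day 2. These genes were active in the line without hypoxia, with a median level of 9.14 on the untreated array. In hypoxia the median was 9.37 on day 1 and 9.78 on day 2, and with knockdown it was 7.40 and 8.33. Relative to the untreated array, 8 members were at least 1.5-fold higher on hypoxia day 1 and 21 on hypoxia day 2, and 1 and 0 with knockdown. The matching shares over all genes tested were 4.52%, 5.20%, 9.80% and 8.24% for hypoxia day 1, hypoxia day 2 and their knockdowns. With knockdown, 35 members on day 1 and 26 on day 2 lay at least 1.5-fold below the untreated array, against 25.5% and 13.2% of all genes tested.

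RSAD2 encodes viperin, an antiviral enzyme that makes a chain-terminating nucleotide. Its level was 9.23 on the untreated array, 10.11 without and 6.96 with knockdown on hypoxia day 1, and 11.01 without and 7.97 with knockdown on day 2. It was 8.87-fold lower with knockdown on day 1 and 8.2-fold lower on day 2, so both knockdown arrays lay below the untreated array and both hypoxia arrays above it. IFIT3 (untreated 9.10) belongs to a family of proteins that bind foreign RNA and was the gene with the largest day 1 fall, from 9.78 to 5.55, or 18.7-fold. Its day 2 levels were 10.27 and 8.75, a difference of -1.53. Its relative IFIT2 went from 10.38 to 7.12 on day 1 and from 10.79 to 9.21 on day 2, the last equal to its untreated level of 9.21.

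IFITM1, a membrane protein that blocks viral entry, was among the genes with the lowest day 2 difference. Its levels were 8.24 untreated, 8.25 and 6.22 on day 1 and 9.13 and 5.84 on day 2, so the knockdown array was 9.79-fold lower on day 2. Its neighbour IFITM3 differed in pattern, at 10.56, 10.65, 10.81, 10.68 and 9.47 in the same order, with a difference of 0.16 on day 1 and -1.21 on day 2. IFITM2 was the member higher on day 1, with differences of 0.87 and -0.09. The genes of the family resemble each other in sequence, so their probe sets may share signal.

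Most sensors and enzymes of the response were lower on both days. The oligoadenylate synthetases, which turn double-stranded RNA into a signal for RNase L, had differences of -2.36 and -2.20 for OAS1, -1.94 and -3.01 for OAS2 and -1.95 and -1.96 for OAS3. OAS1 was at 10.99 without and 8.62 with knockdown on day 1 and 11.31 and 9.11 on day 2, with 10.70 untreated. The cytoplasmic RNA sensors RIGI and IFIH1 were both lower on both days, RIGI with differences of -1.57 and -1.60 and IFIH1 with -1.77 and -0.74. EIF2AK2, the kinase PKR, was lower on day 1 (10.98 against 9.38) with a day 2 difference of -0.24.

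The ubiquitin-like modifier ISG15 and its machinery showed the same pattern. ISG15 was at 8.88 untreated, 9.35 and 7.24 on day 1 and 9.63 and 7.08 on day 2. HERC5, the ligase that attaches it, was at 9.24, 10.09, 7.54, 10.76 and 8.33, a fall of more than 2 log2 units on each day. The conjugating enzyme UBE2L6 and the deconjugating protease USP18 had differences of -0.86 and -1.58, and -0.78 and -1.22. PARP12, PARP9 and its partner DTX3L, which act in ADP-ribosylation and in DNA damage and antiviral signalling, had day 1 differences of -2.83, -1.67 and -2.09 and day 2 differences of -1.91, -1.75 and -1.53.

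Factors that drive the response differed less. IRF9, a DNA-binding factor of the response, was lower on day 1 (-0.68) with a day 2 difference of -0.56, and IRF1 had -0.95 and -0.51. IRF7 had 0.14 and -0.14, neither passing the rule. The 12 members not lower on both days were EIF2AK2, IRF1, IRF9, CMPK2, IFI27, ISG20, PLSCR1, LGALS3BP, HELZ2, IRF7, IFITM2 and IFITM3, of which the first 3 were lower on day 1 alone, 6 (CMPK2, IFI27, ISG20, PLSCR1, LGALS3BP and IFITM3) on day 2 alone, and HELZ2 and IRF7 on neither.

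**Figure D2:**
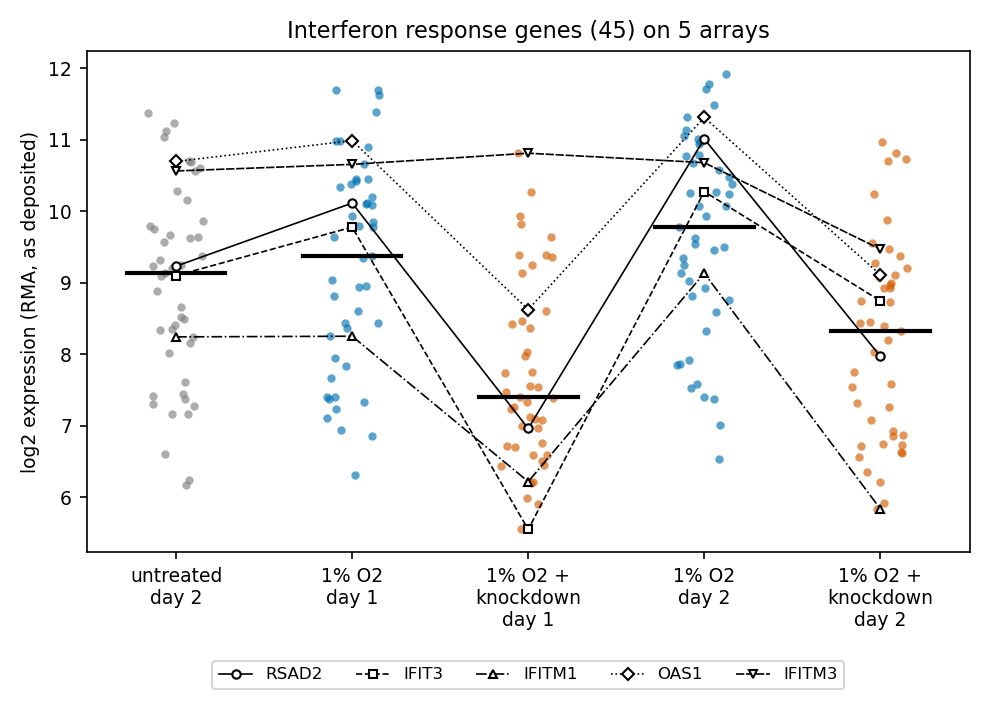
Each point is one of the 45 interferon response genes, with its log2 RMA level on the y axis and the array on the x axis; bars are medians over genes, and lines join RSAD2, IFIT3, IFITM1, OAS1 and IFITM3 across the arrays. The median falls from 9.37 to 7.40 on day 1 and from 9.78 to 8.33 on day 2, and IFITM3 departs from the others on day 1.

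Antigen presentation by MHC class I, which interferon also raises, was lower in part. Of 12 measured genes, 6 were lower (50%, against 26.0% of all genes tested) and 1 was higher on day 1. On day 2, 6 were lower (50%, against 9.23%). Lower on both days were 4, against 4.02% of all genes tested. The transporters TAP1 and TAP2 carry peptides into the endoplasmic reticulum. TAP1 was at 7.63 untreated, 8.34 and 6.91 on day 1 and 9.33 and 7.32 on day 2, and TAP2 at 6.84, 6.62, 5.80, 7.06 and 6.31. The immunoproteasome subunit PSMB9 and the proteasome activator PSME2 were the other 2 lower on both days, with -0.86 and -1.27 and with -1.29 and -0.67. B2M, the light chain of MHC class I, was the member higher on day 1, with differences of 0.68 and -0.37.

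CCL5, TNFSF15, CXCL8 and EDN1 were the cytokine genes lower with knockdown on both days, and all 4 stood at least 1.5-fold above the untreated array in hypoxia. Of 16 cytokine and chemokine genes measured, 6 were lower on day 1 (37.5%, against 26.0% of all genes tested). On day 2, 9 were lower (56.2%, against 9.23%), and 0 were higher on either day. CCL5, a T cell chemokine, was at 8.79 untreated, 10.22 and 9.03 on day 1 and 11.26 and 8.16 on day 2. Its fall was 2.29-fold on day 1 and 8.56-fold on day 2, and the day 2 knockdown array lay below the untreated level. CXCL8, which encodes the neutrophil chemokine interleukin 8, was at 7.49, 10.79, 7.69, 10.26 and 9.46. With knockdown it was close to the untreated level on day 1 and well above it on day 2.

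TNFSF15, a TNF family ligand, was at 6.31 untreated, 8.33 and 5.94 on day 1 and 9.05 and 7.19 on day 2. EDN1, which encodes the vasoconstrictor endothelin 1, completed the 4 that were lower on both days, with -1.16 and -1.12. IL1A, the interleukin 1 alpha gene, was lower on day 1 (9.42 against 7.37) with a day 2 difference of -0.19, while CCL2 and IL32 were lower on day 2, with differences of -1.24 and -1.02 after -0.42 and -0.26 on day 1.

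NF-kB subunits and targets were called lower mainly on day 1. Of 21 measured, 13 were lower and 1 was higher on day 1, with a median of -0.77, against 2 lower and 2 higher on day 2, with a median of -0.09. The share lower was 61.9% on day 1, against 26.0% of all genes tested. On day 2 it was 9.52%, close to the 9.23% of all genes tested. SOD2, the mitochondrial superoxide dismutase, and ICAM1, a leukocyte adhesion molecule, were the 2 lower on both days. SOD2 was at 9.13 untreated, 10.38 and 9.02 on day 1 and 10.48 and 8.42 on day 2, and ICAM1 at 7.97, 9.12, 7.31, 9.04 and 7.97. Both were thus near or below the untreated level with knockdown on each day.

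PTGS2, the inducible cyclooxygenase, was at 10.13 and 7.69 on day 1 and at 9.52 and 9.64 on day 2. The inhibitor TNFAIP3 (-1.76 and 0.87) and the subunit REL (-0.92 and 1.08) were lower on day 1 and higher on day 2. NFKB1, the p105 and p50 subunit that the study's text names, was at 8.80 untreated, 9.10 and 7.48 on day 1 and 8.80 and 8.76 on day 2. RELA, the p65 subunit, was at 8.37, 8.36, 7.75, 8.92 and 8.42, lower on day 1 (1.52-fold), a difference that missed the rule after quantile normalization (log2 difference -0.40), with a day 2 difference of -0.51.

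The genes of the low oxygen response were mostly lower with knockdown on day 1 and, where called, mostly higher on day 2. Of 37 measured HIF targets and oxygen sensors, 20 were lower (54.1%) and 2 were higher on day 1, with a median of -0.62. On day 2, 3 were lower (8.11%) and 10 were higher, with a median of 0.26. The shares of all genes tested were 26.0% lower and 10.8% higher on day 1, and 9.23% and 4.08% on day 2. Hypoxia without knockdown stood 1.5-fold above the untreated array for 22 members on day 1 and 18 on day 2, and with knockdown for 10 and 23. In that order, 4.52%, 5.20%, 9.80% and 8.24% of all genes tested stood above it. The median distance of the list from the untreated array was 0.69 and 0.58 on the hypoxia arrays and 0.08 and 0.75 with knockdown, on day 1 and day 2.

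ALDOC and ENO2, glycolytic enzymes that hypoxia raised and that were lower on day 1 and higher on day 2, have promoter windows with the HIF core. The windows are 250 bases before the start in RefSeq (GRCh38.p14), at chr17:28576896-28577145 on the minus strand for ALDOC and chr12:6914330-6914579 on the plus strand for ENO2, with ACGTG or its reverse complement CACGT in capitals. The first 2 matches of ALDOC overlap.
ALDOC: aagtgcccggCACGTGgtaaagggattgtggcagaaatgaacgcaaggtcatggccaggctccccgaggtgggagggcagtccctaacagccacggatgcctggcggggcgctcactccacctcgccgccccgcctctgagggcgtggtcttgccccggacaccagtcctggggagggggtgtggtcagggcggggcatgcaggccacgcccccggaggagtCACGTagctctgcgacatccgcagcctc
ENO2: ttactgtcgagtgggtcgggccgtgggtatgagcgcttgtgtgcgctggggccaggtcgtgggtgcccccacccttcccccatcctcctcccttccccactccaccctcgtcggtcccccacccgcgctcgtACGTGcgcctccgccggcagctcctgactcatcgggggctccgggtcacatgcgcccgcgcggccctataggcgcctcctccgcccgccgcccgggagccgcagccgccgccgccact
The core was found in 18.7% of all windows, in 23.7% of those of genes tested and in 23 of 54 (42.6%) of those of the HIF and glycolysis lists. Of all genes lower on day 1 and higher on day 2, 30 of 117 windows held it (25.6%), close to the share of genes tested. ALDOC and ENO2 were picked, among genes of these lists called in opposite directions, because their windows hold the core.

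ALDOC, which encodes aldolase C, was at 7.65 on the untreated array, 10.16 without and 6.97 with knockdown on hypoxia day 1, and 10.19 and 10.80 on day 2. ENO2, which encodes enolase 2, was at 6.11, 8.48, 6.99, 7.99 and 9.05 in that order. Both fell with knockdown on day 1, ALDOC to below its untreated level, and on day 2 both reached their highest level on the knockdown array. The day 2 difference of ALDOC (0.61) was just past the rule and missed it, at 0.57, when arrays were centred on their medians.

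HILPDA, a lipid droplet protein that inhibits lipolysis, was at 7.93 untreated, 9.52 and 7.50 on day 1 and 9.61 and 10.78 on day 2. Besides HILPDA, the HIF targets lower on day 1 and higher on day 2 were BHLHE40, DDIT4, ANKRD37, WSB1 and ADM. ADM encodes the vasodilator adrenomedullin and was at 7.30, 7.98, 7.39, 8.16 and 9.23. DDIT4 encodes an inhibitor of mTORC1 signalling and had differences of -1.35 and 0.81.

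PFKFB3, which makes the activator of phosphofructokinase, was at 7.07 untreated, 8.98 and 6.21 on day 1 and 8.46 and 8.98 on day 2, with a day 2 difference of 0.52 below the rule. EGLN3, the oxygen-sensing prolyl hydroxylase that HIF itself raises, was one of the 2 members higher on day 1, from 9.13 to 10.41, and was at 8.53 and 9.06 on day 2, with 7.17 untreated. TMEM45A, JMJD6 and P4HA2 were the 3 members lower on both days. TMEM45A, a hypoxia-induced membrane protein, was at 7.88, 9.95, 8.44, 9.50 and 8.32, and P4HA2, a collagen prolyl hydroxylase, at 8.79, 10.33, 8.75, 10.30 and 9.69. The transcription factor genes themselves differed little for HIF1A (-0.05 and 0.25), while EPAS1, which encodes HIF-2α, was lower on day 1 (-1.30 and -0.21).

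Glycolysis and glucose uptake had 20 of 31 measured genes lower (64.5%) and 1 higher on day 1, with a median of -0.81. On day 2, 3 were lower (9.68%) and 2 higher, with a median of 0.11. Over all genes tested, 26.0% and 9.23% were lower. PFKFB2, another bifunctional enzyme of the fructose bisphosphate switch, fell 5.51-fold on day 1, from 8.58 to 6.12, and was at 8.40 and 8.67 on day 2. PFKP, a phosphofructokinase, was at 9.62 and 7.87 on day 1 and 9.73 and 9.49 on day 2. The glucose transporter SLC2A1 was lower on day 1 (-0.71) with a day 2 difference of 0.07, and LDHA, lactate dehydrogenase A, had -0.44 and 0.23.

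TALDO1 of the pentose phosphate pathway and PFKM, the muscle phosphofructokinase, were the 2 members lower on both days, TALDO1 with -0.76 and -0.68 and PFKM with -0.81 and -0.62. After quantile normalization 1 of them was lower on both, since TALDO1 had -0.57 on day 1. PDK2, an inhibitor of pyruvate dehydrogenase, was higher on day 1 and lower on day 2 (0.64 and -0.66).

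**Figure D3:**
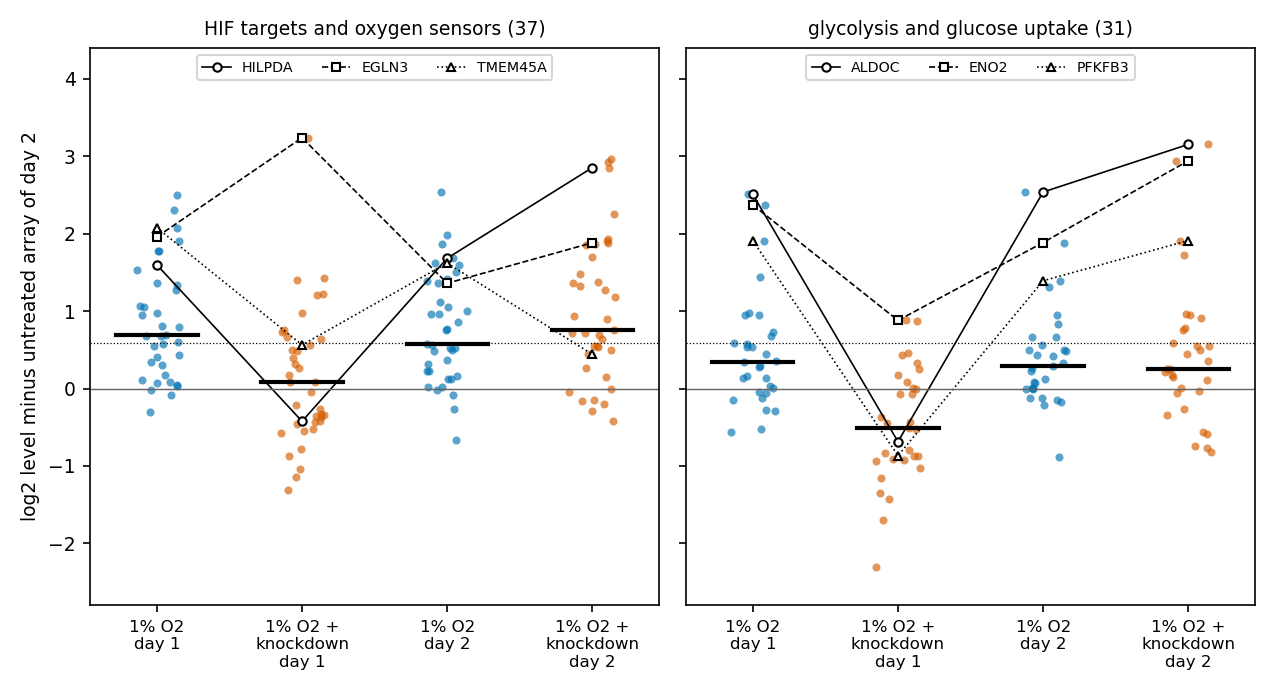
Each point is a gene of the list named above the panel, with its log2 level minus that of the untreated array of day 2 on the y axis and the hypoxia array on the x axis; bars are medians over genes, the dotted line marks 1.5-fold and lines join 3 genes per panel. In both panels the day 1 knockdown array has the lowest median, 0.08 for HIF targets and -0.51 for glycolysis, while the day 2 knockdown array stands at 0.75 and 0.26, and EGLN3 is highest on the day 1 knockdown array.

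Other metabolic groups were described from lists of their enzymes. In the TCA cycle and respiratory chain, 9 of 48 genes were higher and 8 lower on day 1, with a median of 0.02, and 3 were higher and 4 lower on day 2. The shares lower, 16.7% and 8.33%, lay below those of all genes tested (26.0% and 9.23%). The number lower on day 1 was 5 after quantile normalization and 15 when arrays were centred on their medians. IDH2, the mitochondrial isocitrate dehydrogenase, was higher on both days, at 8.58 untreated, 8.33 and 9.12 on day 1 and 8.71 and 10.11 on day 2. CYC1, a subunit of complex III, fell 2.95-fold on day 2, from 8.81 to 7.24, with a day 1 difference of 0.33.

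Fatty acid synthesis and storage had 10 of 27 genes lower on day 1 (37%, against 26.0% of all genes tested), and 6 after quantile normalization. On day 2, 0 were lower (against 9.23%) and 3 higher. ACSL4, which activates polyunsaturated fatty acids, fell on day 1 from 8.03 to 5.91 and was at 7.97 and 7.89 on day 2. LPIN1, a phosphatidate phosphatase, had -2.32 and 0.37. Fatty acid oxidation showed few calls, with 2 higher and 2 lower of 22 on day 1 and 1 and 1 on day 2. Its shares lower were 9.09% and 4.55%, below the 26.0% and 9.23% of all genes tested. ETFDH, which passes electrons from fatty acid oxidation to ubiquinone, was lower on day 1 and higher on day 2 (-1.67 and 0.65).

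Cholesterol synthesis and uptake had 14 of 21 genes lower on day 1 (66.7%), with a median of -0.86, and 2 on day 2 (9.52%), with a median of -0.02. Over all genes tested, 26.0% and 9.23% were lower. EBP and NSDHL, enzymes of the late pathway, were the 2 lower on both days. EBP was at 11.26 untreated, 11.78 and 9.54 on day 1 and 11.66 and 10.95 on day 2, and NSDHL had -1.94 and -0.74. DHCR7, the last enzyme of the pathway, fell 5.61-fold on day 1 and had a day 2 difference of -0.38.

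Amino acid metabolism had 15 of 32 genes lower (46.9%) and 3 higher on day 1 and 2 lower (6.25%) and 1 higher on day 2. The day 1 share lay above the 26.0% of all genes tested and the day 2 share below the 9.23%. The list was not matched for level, with a median of 9.09 on the untreated array against 7.81 over all genes tested. The serine synthesis enzyme PHGDH was at 9.33 and 7.32 on day 1 and 9.36 and 8.93 on day 2, and SLC7A5, a carrier of large neutral amino acids, had -1.85 and -0.25. BCKDHB, a subunit of the branched-chain ketoacid dehydrogenase, was higher on both days (0.79 and 0.89).

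Stress responses were lower mostly on day 1. Of 32 unfolded protein and integrated stress response genes, 23 were lower (71.9%, against 26.0% of all genes tested) and 1 higher on day 1, with a median of -0.82. On day 2, 7 were lower (21.9%, against 9.23%) and 1 higher. HYOU1, an endoplasmic reticulum chaperone named for its rise in low oxygen, was lower on both days, at 9.18 untreated, 9.72 and 7.60 on day 1 and 10.20 and 8.91 on day 2. DDIT3, which encodes the CHOP factor, was at 7.99, 9.70, 8.37, 9.42 and 8.74, and with DNAJB9 (-2.29 and -0.80) and PDIA4 (-1.38 and -0.60) completed the 4 lower on both. PPP1R15A, which restores translation after stress, was lower on day 1 alone (-2.04 and -0.02). Of 18 heat shock protein genes, 12 were lower on day 1 (66.7%, against 26.0% of all genes tested), and 7 after quantile normalization. On day 2, 2 were lower (11.1%, against 9.23% of all genes tested) and 2 higher.

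Autophagy and mitophagy had 17 of 45 genes lower (37.8%, against 26.0% of all genes tested) and 3 higher on day 1. On day 2, 4 were lower (8.89%, against 9.23% of all genes tested) and 2 higher. ULK1, the kinase that starts autophagy, was lower on both days (-0.73 and -0.71), as was ATG12, a ubiquitin-like conjugating factor (-1.64 and -0.80). ATG4C, a protease that processes LC3 proteins, was higher on both (0.97 and 0.69), and ATG14 fell 4.13-fold on day 1 with a day 2 difference of 0.37.

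Antioxidant and NRF2 genes were among the lists with a similar median on both days, -0.39 and -0.43. Of 36 measured, 14 were lower (38.9%, against 26.0% of all genes tested) and 6 higher on day 1. On day 2, 11 were lower (30.6%, against 9.23%) and 2 higher. GSR, glutathione reductase, was at 10.95 untreated, 10.73 and 8.19 on day 1 and 10.65 and 9.70 on day 2. GPX2, the gastrointestinal glutathione peroxidase, was at 11.27, 10.54, 8.06, 10.34 and 9.50, so the knockdown arrays held its lowest levels on each day. SOD2, GSTM4 and GCLM were the other 3 lower on both days, while CAT, the peroxisomal catalase, was higher on both (0.76 and 1.02). HMOX1, haem oxygenase 1, was at 10.09 and 7.51 on day 1 and 9.37 and 8.79 on day 2, with a day 2 difference of -0.58 just short of the rule and past it (-0.63) after quantile normalization.

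Metallothioneins bind zinc and copper and are raised by metals and stress. Of 12 metallothionein and zinc regulator genes, 4 were lower (33.3%, against 26.0% of all genes tested) and 1 was higher on day 1. On day 2, 6 were lower (50%, against 9.23%). MT2A was at 11.55 untreated, 11.84 and 10.68 on day 1 and 11.78 and 10.07 on day 2, and MT1X at 9.03, 9.64, 8.23, 9.48 and 7.72. Both knockdown arrays lay below the untreated array for both genes. MT1F and the zinc importer SLC39A14 were also lower on both days, although MT1F missed the rule on day 1 after quantile normalization (-0.45). The metallothionein genes are near-identical copies, and their probe sets may share signal.

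Of 44 DNA replication genes measured, 16 were lower (36.4%) and 9 higher on day 1. On day 2, 19 were lower (43.2%) and 0 higher, with 9 lower on both days. The shares of all genes tested were 26.0% lower and 10.8% higher on day 1, 9.23% lower on day 2 and 4.02% lower on both. The medians of the list were -0.22 and -0.52, and -0.06 and -0.52 after quantile normalization. MCM7, a subunit of the replicative helicase, was at 9.48 untreated, 9.05 and 7.68 on day 1 and 9.07 and 7.99 on day 2. CCNE1, the cyclin that drives entry into S phase, was at 7.02, 6.85, 5.12, 6.82 and 5.92. Also lower on both days were TK1, CDC6, CDC45, ORC1, GINS1, GINS2 and CHAF1B, with day 2 differences from -1.15 for GINS2 to -0.62 for ORC1. GINS2 missed the rule on day 1 after quantile normalization (-0.52).

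Mitotic genes had 12 of 50 lower and 4 higher on day 1 and 5 lower on day 2, with 0 lower on both, shares near those of all genes tested (26.0% and 9.23% lower). AURKA, the mitotic kinase, was at 9.43 and 7.73 on day 1 and 9.32 and 9.19 on day 2, while CDK1 was higher on day 1 (1.46) with a day 2 difference of -0.25. Replication-dependent histones had 15 of 21 genes lower (71.4%, against 26.0% of all genes tested) and 1 higher on day 1, with a median of -0.92. On day 2, 6 were lower (28.6%, against 9.23%) and 2 higher. H2AC20 was at 10.06 untreated, 9.85 and 7.20 on day 1 and 10.06 and 9.13 on day 2, and H2AC4, H2AC6, H3C2 and H3C12 were lower on both days as well. H2AC6 missed the rule on day 1 after quantile normalization (-0.43), and histone genes share sequence, so their values are uncertain. Of 23 CDK inhibitor and growth arrest genes, 8 were lower on day 1 (34.8%) and 2 on day 2 (8.7%). Over all genes tested, 26.0% and 9.23% were lower. PMAIP1, which encodes the BH3-only protein NOXA, was lower on both days, at 8.62 untreated, 9.93 and 6.86 on day 1 and 10.27 and 8.69 on day 2.

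MYC and ribosome biogenesis had 10 of 38 genes lower (26.3%) and 3 higher on day 1 and 4 lower (10.5%) on day 2, close to the shares of all genes tested (26.0% and 9.23%). MYC, which the study's text names, was at 9.66 untreated, 9.80 and 9.23 on day 1 and 10.10 and 9.76 on day 2, differences that did not pass the rule as deposited, although the day 1 difference passed it (-0.72) with arrays centred on their medians. NHP2, a protein of small nucleolar ribonucleoproteins, and BYSL, a ribosome assembly factor, were lower on both days, NHP2 with -1.49 and -0.72 and BYSL with -0.77 and -0.73. Of 34 ribosomal protein genes, 9 were lower (26.5%) and 2 higher on day 1 and 4 were lower (11.8%) on day 2, also close to those shares, and the 4 lower on both were RPS9, RPS14, RPS19 and RPL29. With the brightest probe set of a gene in place of the mean, RPS9 (-0.48) and RPL29 (-0.53) missed the rule on day 2.

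Epithelial junction and keratin genes had 9 of 32 lower on day 1 (28.1%) and 3 on day 2 (9.38%), close to the 26.0% and 9.23% of all genes tested. The 3 lower on both days were KRT8, KRT18 and CLDN7. KRT8 and KRT18 are the paired keratins of simple epithelia. KRT8 was at 12.22 untreated, 12.03 and 9.48 on day 1 and 11.97 and 11.22 on day 2, and KRT18 at 11.65, 11.66, 10.59, 11.70 and 10.76. Each knockdown array lay below the arrays without knockdown for both. CDH1, the epithelial cadherin, was at 10.99 untreated, 11.17 and 10.63 on day 1 and 11.33 and 11.31 on day 2, and passed the rule on neither day.

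Of 16 EMT transcription factors and epithelial regulators, 0 passed the rule on day 1 and 2 were higher on day 2, ELF3 (7.00 against 7.80) and GRHL1 (10.59 against 11.27), both epithelial factors. On day 1, 2 were higher and 1 was lower after quantile normalization, and 2 were lower with arrays centred on their medians. SNAI1 was at 6.01 untreated, 6.14 and 6.05 on day 1 and 6.16 and 6.19 on day 2.

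Mesenchymal and contractile genes had 7 of 18 lower on day 1 (38.9%, against 26.0% of all genes tested), and 4 after quantile normalization. On day 2, 4 were lower (22.2%, against 9.23%). FN1, fibronectin, was at 7.96 untreated, 8.40 and 7.79 on day 1 and 9.11 and 7.19 on day 2, a 3.78-fold fall on day 2 and a day 1 difference that missed the rule after quantile normalization (-0.40). S100A4, a calcium-binding protein linked to migration, was lower on both days (-0.94 and -1.51).

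Integrins, laminins and matrix crosslinkers had 12 of 23 genes lower on day 1 (52.2%, against 26.0% of all genes tested), with a median of -0.67. On day 2, 5 were lower (21.7%, against 9.23%) and 1 higher, with a median of -0.23. LAMB3, a laminin beta chain of epithelial basement membranes, was at 6.94 untreated, 8.48 and 6.63 on day 1 and 8.83 and 7.55 on day 2. Hypoxia thus stood well above the untreated level on both days, and knockdown brought LAMB3 below that level on day 1 and part of the way to it on day 2. THBS1, thrombospondin 1, was lower on both days, with -0.67 on day 1 (-0.51 after quantile normalization, below the rule) and -1.91 on day 2. ITGA5, the fibronectin receptor subunit, fell from 8.85 to 7.00 on day 1, to near its untreated 6.76, and was at 9.19 and 8.99 on day 2.

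Among 21 YAP target genes, 6 were lower (28.6%, against 26.0% of all genes tested) and 1 higher on day 1. On day 2, 4 were lower (19%, against 9.23%) and 1 higher. ANKRD1, a widely used YAP target, was at 9.82 untreated, 9.89 and 7.86 on day 1 and 10.10 and 8.36 on day 2, and NT5E, the ectoenzyme CD73, and CCN1, a matricellular protein, were the others lower on both. Of 23 TGFβ pathway and ID genes, 8 were lower (34.8%) and 3 higher on day 1 and 3 were lower (13.0%) and 1 higher on day 2. Over all genes tested, 26.0% and 9.23% were lower. The ligand TGFB1 was at 6.28, 7.01, 5.38, 7.20 and 6.21, and the receptor TGFBR1 at 8.18, 9.26, 7.74, 9.14 and 8.29. The second receptor, TGFBR2, was higher on day 2 (0.91) with a day 1 difference of 0.35.

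EGF receptor family genes had 8 of 19 lower on day 1 (42.1%) and 2 lower (10.5%) and 3 higher on day 2. Over all genes tested, 26.0% and 9.23% were lower. The ligand HBEGF, which hypoxia raised, was at 9.10 untreated, 10.35 and 7.46 on day 1 and 9.92 and 9.42 on day 2, and MET, the receptor of hepatocyte growth factor, was lower on day 2 (-0.85) with a day 1 difference of -0.40. Gastrointestinal epithelial products had 4 of 8 lower (50%, against 26.0%) and 2 higher on day 1 and 3 lower on day 2 (37.5%, against 9.23%). CEACAM1, CEACAM6 and S100P were lower on both. CEACAM1, an adhesion receptor that interferon can raise, was at 7.70, 8.23, 6.48, 8.62 and 7.42. Of the ANGPTL family and lipase list, 5 genes passed the filter, and LIPG, endothelial lipase, was lower on day 1 (-1.38) with a day 2 difference of -0.48.

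ABC transporters, the drug efflux family at the centre of the study, had 6 of 19 measured genes lower on day 1 (31.6%) and 3 lower (15.8%) and 1 higher on day 2, against 26.0% and 9.23% of all genes tested lower. The 2 lower on both days were TAP1 and TAP2, which carry peptides and not drugs. ABCC1, the multidrug resistance protein MRP1, was at 7.71 untreated, 7.71 and 6.51 on day 1 and 7.78 and 7.86 on day 2, so it fell 2.3-fold on day 1 and did not pass the rule on day 2. ABCB1, which encodes P-glycoprotein, was below the filter, at 4.72 and 4.62 on day 1 and 4.42 and 4.49 on day 2. ABCG2, also below the filter, was at 5.25 and 5.99 on day 1 and 5.52 and 5.37 on day 2.

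Genes higher with knockdown on both days were few, 48 of all genes tested (0.434%), and 74 after quantile normalization. Of the genes higher on day 2, 10.6% were also higher on day 1, close to the 10.8% of all genes tested. The overlap was thus no larger than the day 1 share alone would give. CYP1A1, the aryl hydrocarbon receptor target that oxidises aromatic compounds, was at 8.91 untreated, 7.51 and 8.10 on day 1 and 8.86 and 11.15 on day 2. Its day 1 difference of 0.59 was at the edge of the rule and fell to 0.44 with arrays centred on their medians, while its day 2 rise of 4.87-fold was the largest that day outside the small RNAs. IGF2BP2-AS1, an antisense RNA of IGF2BP2, was at 6.28, 6.47, 9.03, 6.89 and 8.08. MTND2P28, a nuclear copy of the mitochondrial ND2 gene, had 1.11 and 2.00 and may hold signal of the mitochondrial transcript. The receptor gene GPRC5D (1.14 and 1.75), the B cell adaptor gene BLNK (1.74 and 1.06) and the short-chain reductase gene DHRS2 (1.40 and 1.17) were also higher on both days.

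Of the genes lower on both days outside these lists, NMRAL2P, a pseudogene known as an NRF2 target, was among the lowest. It was at 8.27 untreated, 8.61 and 5.09 on day 1 and 8.51 and 6.43 on day 2. PLAT, tissue plasminogen activator, was lower on both days as well, at 7.48, 8.14, 6.28, 8.33 and 6.62.

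Apart from small RNAs, the genes with the highest day 1 differences did not pass the rule on day 2. The 5 genes with the highest day 1 differences were FBXO4 (5.69 against 9.64), DICER1-AS1, CYB5R2, C6orf52 and LMNTD2-AS1, with differences from 3.95 to 3.02. On day 2 their differences lay between -0.53 for C6orf52 and 0.46 for LMNTD2-AS1. The lowest on day 1 besides IFIT3 were GMEB1 (9.19 against 5.45), SNHG29, NMRAL2P and MRPS18A, and of these NMRAL2P and MRPS18A were also lower on day 2, MRPS18A with a difference of -0.61. The lowest of day 2 were IFITM1, CCL5, RSAD2, OAS2 and ISG15, all but CCL5 members of the interferon list.

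By class of transcript, the shares called on day 1 ran in different directions for long noncoding RNAs and protein-coding genes, a description with no test. The classes were not matched for level, which the day 1 differences also followed. Of 180 long noncoding RNAs, 26.7% were higher and 11.7% lower on day 1, against 10.3% and 26.3% of 10549 protein-coding genes. On day 2 the shares were 6.11% and 7.22% against 3.76% and 9.31%. Small RNA genes varied widely, with 26.0% of 123 higher on each day and 39.8% and 10.6% lower. The small nucleolar RNA SNORD14E was at 8.58 and 9.98 on day 1 and 7.05 and 12.07 on day 2, the largest rise of either day, and SNORD116-6 was at 9.83 and 8.28 and then 9.60 and 4.76. Copies of each family share sequence, so these values are uncertain.

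Whether knockdown acted differently in hypoxia than in the other models was the one question with a replicated test. In limma's linear model over the 12 treated arrays, quantile-normalized, with a block of 6 pairs, 0 genes differed between the 2 hypoxia pairs and the 4 others after Benjamini-Hochberg adjustment in either direction (0% of genes tested), and 930 had an unadjusted p under 0.05. The smallest adjusted p was 0.29, with 4 residual degrees of freedom and the days standing in for replicates. OAS3 led, with a knockdown difference of -1.97 in hypoxia and 0.12 elsewhere, a difference between them of -2.09 ± 0.263 (SE, limma adjusted p = 0.29). Its knockdown differences were -1.91 and -2.04 in the hypoxia pairs, 0.35 and -0.16 in the TGFβ1 pairs and 0.18 and 0.11 in the 4-OHT pairs. OAS3 was picked for its small p in this same comparison, so these values add no support beyond the test. The difference did not pass the adjustment.

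PARP12, PLAT, DHRS2 and DTX3L followed, each with a limma adjusted p of 0.413 and differences between hypoxia and the other pairs of -2.28, -2.02, 1.62 and -1.65. Of the 45 interferon response genes, 25 had an unadjusted p under 0.05 with a lower difference in hypoxia and 0 with a higher one, against 439 lower and 491 higher among all genes tested. The median of this list's differences between hypoxia and the other pairs was -1.10, against 0.02 over all genes. After quantile normalization the list's median knockdown difference was -1.40 and -1.38 in the hypoxia pairs, 0.29 and -0.26 in the TGFβ1 pairs and -0.63 and -0.40 in the 4-OHT pairs. As deposited, the TGFβ1 arrays without knockdown lay lower than their partners. Their medians over probe sets were 5.225 and 5.192, against 6.083 and 6.07 with knockdown. How much of this offset remained in the TGFβ1 differences after normalization was not tested. HIF targets (median 0.03) and glycolysis (median -0.21) had 2 and 1 members with an unadjusted p under 0.05 and a lower difference in hypoxia, and 3 and 0 with a higher one.

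**Figure D4:**
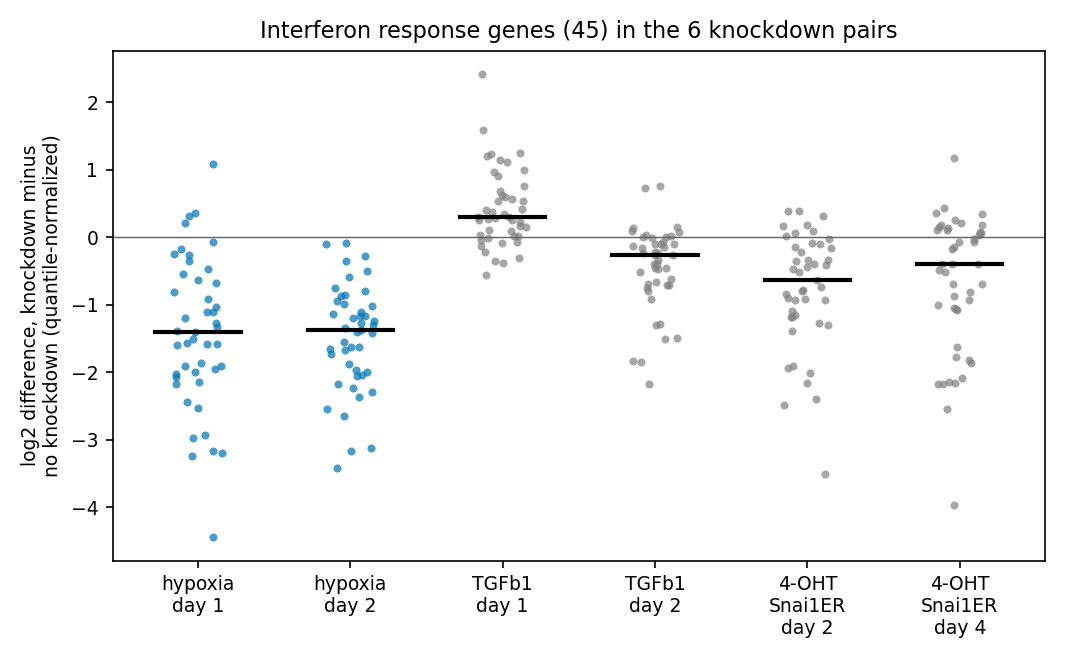
Each point is one of the 45 interferon response genes, with its log2 difference (knockdown minus no knockdown, after quantile normalization) on the y axis and the knockdown pair on the x axis; bars are medians over genes, and the hypoxia pairs are blue. The medians are -1.40 and -1.38 in hypoxia and between -0.63 and 0.29 in the other pairs.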

How the data were processed

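RNA of each condition was extracted with Trizol, amplified with the NuGEN Applause WT-Amp ST kit and hybridised to 1 GeneChip Human Gene 1.0 ST array per condition. The authors normalized the arrays with RMA in Partek (versions are not given in the sources used here), and the deposited values are log2 intensities. Of 33297 probe sets, 19460 had a single gene symbol in the platform annotation, and these gave 18417 genes after averaging probe sets. Genes with a mean above the 40th percentile (5.90) were tested, which left 11050. Arrays carry no read depth, and the number of arrays limits the precision.

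Samples were grouped by their labels. Each difference is the knockdown array minus its partner, called at 1.5-fold. The hypoxia pairs were set against the other pairs in limma 3.58.1 (R 4.3.3) after quantile normalization, with pairs of the same treatment and day as a block and Benjamini-Hochberg adjustment at 0.05. The scripts were tested on simulated data. The pairing comes from the design.

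The members and gene lists were chosen with earlier results of these data known. Named genes were those the study names, the 10 highest and 10 lowest called on both days, the 5 highest and 5 lowest of each day, the 5 widest opposite calls in each order, up to 6 members per list by mean difference with every member called on both days, and the 5 smallest p. Small RNAs were left out of these ranks. Other genes named (ADM, ANKRD37, B2M, BHLHE40, CMPK2, DDIT4, EIF2AK2, ENO2, EPAS1, GRHL1, HELZ2, HIF1A, IFI27, IFITM2, IFITM3, IL32, IRF1, IRF7, IRF9, ISG20, LDHA, LGALS3BP, PDK2, PLSCR1, REL, SLC2A1, SNORD14E, SNORD116-6, TNFAIP3 and WSB1) were chosen after their values were seen.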

Additional observations from a re-analysis of the deposited data

Results flagged for a closer look

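These genes were called in opposite directions on the 2 days, and the difference between the days was not tested, with 1 array per condition. Lower with knockdown on day 1 and higher on day 2 were ALDOC (log2 differences of -3.19 and 0.62), SLC20A1, a phosphate transporter (-2.16 and 1.31), CREBRF (-2.47 and 0.73), HILPDA (-2.02 and 1.17), ACVR1C, a receptor of the TGFβ family (-1.60 and 1.14), and ETFDH (-1.67 and 0.65). Higher on day 1 and lower on day 2 were POLR2I, an RNA polymerase II subunit (2.24 and -1.32), NPPA, which encodes atrial natriuretic peptide (2.76 and -0.64), TMEM243 (2.57 and -0.83), COX7B2 (2.06 and -0.90) and DORIP1 (2.21 and -0.74).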

How the results depend on the processing

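With 1 array per condition no replicate could be left out within hypoxia, and a call rests on 1 pair of arrays. Genes higher on both days numbered 48 as deposited, 74 after quantile normalization, 90 with no filter and 8 at 2-fold. Genes higher on day 1 numbered 1190 as deposited, 735 with arrays centred on their medians, 2355 with no filter and 344 at 2-fold. At 2-fold, 1376 genes were lower on day 1, 66 higher and 230 lower on day 2, 107 lower on both days, 18 lower then higher and 10 higher then lower. With no filter, 57.2% of the day 1 calls were lower. The interferon genes lower on both days numbered 32 after quantile normalization, 35 with median centring, 33 with the brightest probe set, 35 with no filter and 25 at 2-fold. Leaving out genes with the same value on both arrays of a pair, an alternative chosen after seeing the data, moved none of the 5 counts it was run on by 1.5 times.

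In the limma comparison of the hypoxia pairs with the others, the fit without the replicate block called 0 genes higher and 0 lower (967 unadjusted, smallest adjusted p 0.147). With no filter, 1 gene was called lower (limma adjusted p 0.0135). Leaving out each pair in turn gave 0 to 119 genes higher and 0 to 107 lower. The calls above 0 came without the hypoxia day 2 pair, when the day 1 pair stood alone and was assumed to vary like the others (limma smallest adjusted p 0.0154). Over all alternatives the smallest adjusted p ran from 0.0135 to 0.925.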
